A study of Mus musculus with 10 samples.

Results

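The aryl hydrocarbon receptor gene Ahr and 5 genes known as its targets, Ahrr, Cyp1a1, Cyp1b1, Tiparp and Nqo1, were followed in mouse embryonic stem cells through a change of culture medium, a change back and a second change. They are 6 of the 24015 genes in the deposited count tables and were taken by symbol. They were chosen by their counts in these same 10 libraries, whose earlier results were known. Their levels and differences between cultures are therefore given as a description, without a test. All libraries came from cells that carry a reporter of Wnt/beta-catenin signalling and were grown on gelatin with leukaemia inhibitory factor (LIF). Medium was either serum with LIF or 2i with LIF, where 2i stands for a GSK3 inhibitor at 3 µM together with an inhibitor of the ERK pathway at 1 µM. There were 5 groups of 2 libraries: the original culture in serum; cells after 5 to 6 passages in 2i (first 2i); cells after more than 13 passages in 2i (long 2i); long 2i cells given 6 passages in serum (serum return); and cells given 13 passages in 2i, 6 in serum and then 4 to 5 more in 2i (second 2i). The labels do not say whether the 2 libraries of a group were separate cultures, or whether second 2i came from the sampled serum return cells.

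The receptor is a ligand-activated transcription factor of the bHLH-PAS family. Without ligand it is held in the cytoplasm by a complex that includes the chaperone HSP90 and the co-chaperone p23 (encoded by Ptges3). With ligand it enters the nucleus, pairs with ARNT and binds the dioxin response element, whose core letters are GCGTG. Cyp1a1 and Cyp1b1 encode cytochrome P450 monooxygenases that oxidise polycyclic aromatic compounds and receptor ligands, and Cyp1a1 is the usual readout of receptor activity. Ahrr encodes a repressor that competes with the receptor for ARNT, and Tiparp encodes a mono-ADP-ribosyltransferase that also represses the receptor, so both are known as negative feedback genes. Nqo1 encodes a quinone reductase that is also a classical target of NRF2, the regulator of the antioxidant response.

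Promoter windows running from 250 bases before to 50 after a RefSeq transcript start (build GRCm38.p6) were matched for 5 of the 6 genes, and 3 are printed because Cyp1a1 and Ahrr were high in the same cultures and Tiparp was low there. Each is written 5′ to 3′ on the gene's strand, with GCGTG, or CACGC where the core lies on the other strand, in capitals. Cyp1a1 is at chr9:57697363-57697662, plus strand, Ahrr at chr13:74292282-74292581, minus strand, and Tiparp at chr3:65528197-65528496, plus strand.
Cyp1a1: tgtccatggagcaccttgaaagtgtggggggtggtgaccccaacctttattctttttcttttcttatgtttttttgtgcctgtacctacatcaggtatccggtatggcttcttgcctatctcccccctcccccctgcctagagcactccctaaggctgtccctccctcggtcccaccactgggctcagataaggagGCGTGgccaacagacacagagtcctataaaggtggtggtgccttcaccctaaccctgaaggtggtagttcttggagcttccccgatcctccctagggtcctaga
Ahrr: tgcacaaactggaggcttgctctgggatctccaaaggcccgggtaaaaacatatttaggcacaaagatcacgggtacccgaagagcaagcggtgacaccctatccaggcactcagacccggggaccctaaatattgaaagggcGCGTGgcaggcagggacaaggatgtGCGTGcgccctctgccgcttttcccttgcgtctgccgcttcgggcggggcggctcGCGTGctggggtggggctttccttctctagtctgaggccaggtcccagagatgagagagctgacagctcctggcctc
Tiparp: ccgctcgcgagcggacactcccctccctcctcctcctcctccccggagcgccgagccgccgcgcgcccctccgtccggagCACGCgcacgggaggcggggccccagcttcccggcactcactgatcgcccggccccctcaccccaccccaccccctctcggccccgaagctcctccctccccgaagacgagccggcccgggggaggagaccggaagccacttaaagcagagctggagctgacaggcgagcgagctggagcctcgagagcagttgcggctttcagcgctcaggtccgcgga
The Cyp1a1 window held 1 core, whose first base lay at position -54, counted backwards from the transcript start. Ahrr held 3 in the forward direction, at -107, -82 and -27, and the last of them is part of the longer form TNGCGTG. The core stood once, on the other strand, in the windows of Tiparp (-170) and Cyp1b1 (-76), and the Nqo1 window held none. Of 32851 windows of the same length in the table, 32.4% held the core on either strand, 3.91% held at least 3 and 5.07% held TNGCGTG, which contains the core. A match describes letters only.

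Gene counts totalled 16809070 to 27766338 per library. Levels are given as CPM, the count scaled to a fixed library total over the 14220 genes that passed a filter on low counts, adjusted by the library's TMM factor, as mean ± SD over n = 2 libraries. CPM is not scaled for gene length, so levels are compared within a gene and not between genes. Where both libraries of a group lacked counts, a gene was given a floor of 3 counts over both libraries of that group, which came to 0.0608 to 0.0837 CPM and covers counting error only. Rn45s, a ribosomal RNA precursor, stood at 2496 CPM in one serum return library and 15480 CPM in the other, and leaving it out changed no count reported here by over 1.5 times. The part of depth and of Rn45s in the results was not tested further. All 8 markers of embryonic stem cells were detected in every group, with a summed level of 4420 to 6640 CPM. Summed markers of other cell types were far lower: 7.5 to 43 CPM for 10 fibroblast and feeder genes, 77 to 169 CPM for 8 endothelial genes, 13.9 to 31.5 CPM for 6 blood genes, 2.82 to 9.65 CPM for 9 liver and visceral endoderm genes and 2.81 to 4.01 CPM for 6 surface epithelium genes. The epithelial markers Krt5 and Ivl and the globin gene Hbb-b1 had no counts in any library. In bulk RNA a lower share of cells that express a gene and less of its RNA per cell cannot be told apart.

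Ahr was low in serum and several-fold higher in each 2i culture. It stood at 1.53 and 1.72 CPM in the 2 serum libraries, 12.5 and 14.5 CPM in first 2i, and 11.5 and 15.8 CPM in long 2i. After the return to serum it read 1.26 and 1.44 CPM, and in second 2i 6.76 and 5.8 CPM. The 6 libraries from 2i all lay above the 4 from serum. First 2i (13.5 ± 1.4 CPM) was 8.31-fold above serum (1.63 ± 0.13 CPM), a log2 difference of 3.05 with a standard error (SE) of 0.195. Long 2i and first 2i overlapped, with a log2 difference of 0.02 (SE 0.14). Second 2i (6.28 ± 0.68 CPM) was 4.65-fold above serum return and 2.15-fold below first 2i, and neither pair of groups overlapped. From high to low the order was long 2i, first 2i, second 2i, serum and serum return. Within the higher pair the libraries interleaved, and the serum and serum return libraries, although they did not interleave, differed by a log2 value of -0.28 (SE 0.283), about the size of its error.

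Cyp1a1 had the widest range of the 6 genes. No read of it was counted in either serum library, against 153 and 128 counts (7.16 and 6.23 CPM) in first 2i and 872 and 916 counts (51.5 and 48.4 CPM) in long 2i. Serum return held 6 and 1 counts (0.215 and 0.0465 CPM) and second 2i 11 and 4 counts (0.599 and 0.211 CPM). The gene was thus high in first 2i, highest in long 2i and close to zero in second 2i, although all 3 were in the same inhibitors. Long 2i was 7.46-fold above first 2i (log2 difference 2.90, SE 0.132), while Ahr overlapped between the same cultures. Second 2i (0.405 ± 0.27 CPM) was 16.5-fold below first 2i (6.7 ± 0.65 CPM), with a 95% exact interval for counting error of 9.94 to 30.2, and 123-fold below long 2i (interval 75 to 222). Without replicate 1 of second 2i, the log2 difference from first 2i was -4.95 in place of -4.04. Against the original serum, second 2i was at least 5.42-fold higher and serum return at least 1.75-fold higher, both bounds resting on the floor, and the latter on 7 counts of which 6 were in 1 library. Second 2i and serum return overlapped: the lower second 2i library (0.211 CPM) lay just under the higher serum return library (0.215 CPM). The ratio of their means was 3.1, with a 95% exact interval for counting error of 1.09 to 8.22, and second 2i was the higher in each title series. The log2 difference was 1.47 (SE 0.649), and 2.95 without replicate 1 of serum return.

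Ahrr followed Cyp1a1. It stood at 0.143 and 0.365 CPM in serum, 4.91 and 3.65 CPM in first 2i, 16 and 14.2 CPM in long 2i, 0.287 and 0.651 CPM in serum return and 0.49 and 0.633 CPM in second 2i. Both long 2i libraries were above both first 2i libraries, and second 2i lay inside the range of serum return. First 2i was 16.9-fold above serum (10 counts in all; 95% exact interval for counting error 9.15 to 36.5) and long 2i 3.52-fold above first 2i (log2 difference 1.81, SE 0.181). Second 2i (0.562 ± 0.1 CPM) was 7.63-fold below first 2i (4.28 ± 0.89 CPM) and differed from serum return by a log2 value of 0.33 (SE 0.486), less than its error. Without replicate 2 of serum, the log2 difference between first 2i and serum was 4.84 in place of 4.07.

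Cyp1b1 was the least counted of the 6 and is the least certain. Serum held 6 and 1 counts, first 2i 45 and 23, long 2i 34 and 20, serum return 17 and 0, and second 2i 5 and 0. In each group the library of the first title series (replicate 1) held more counts than the other. Of the fibroblast markers, Dcn held 17, 16, 8, 69 and 20 counts in replicate 1 of the same groups in that order, and Col3a1 held 5, 6, 4, 20 and 5, and neither had a count in any replicate 2. Both were highest in replicate 1 of serum return, where Cyp1b1 held 17 counts against 0 in replicate 2. The fibroblast list was not uniform in this. In serum return Col1a2 held 17 and 3 counts in replicates 1 and 2. Col1a1 held 67 and 53 there, Thy1 644 and 461 and Pdgfrb 361 and 286. The part of these markers in the Cyp1b1 levels was not tested. First 2i (1.61 ± 0.7 CPM) lay above serum (0.17 ± 0.17 CPM) in both libraries, by 9.51-fold with an exact interval for counting error of 4.27 to 24 (log2 difference 3.17, and 4.80 without replicate 1 of serum), and did not stand apart from long 2i (1.53 ± 0.67 CPM). Second 2i (0.136 ± 0.19 CPM) was 11.8-fold below first 2i (interval 4.94 to 38.5) and overlapped both serum groups. That fold rests on 5 counts in 1 library, and the fitted log2 difference of -3.54 read -8.07 without replicate 1 of second 2i. The fitted log2 difference between second 2i and serum return was -1.30 (SE 1.46), and it read 4.46 without replicate 1 of serum return and -5.84 without replicate 1 of second 2i, so no direction can be given. Cyp1b1, Cyp1a1 and Ahrr each reached 10 counts in both libraries of only 2 groups, first and long 2i. They passed the filter through the groups in which they were high.

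**Figure D1:**
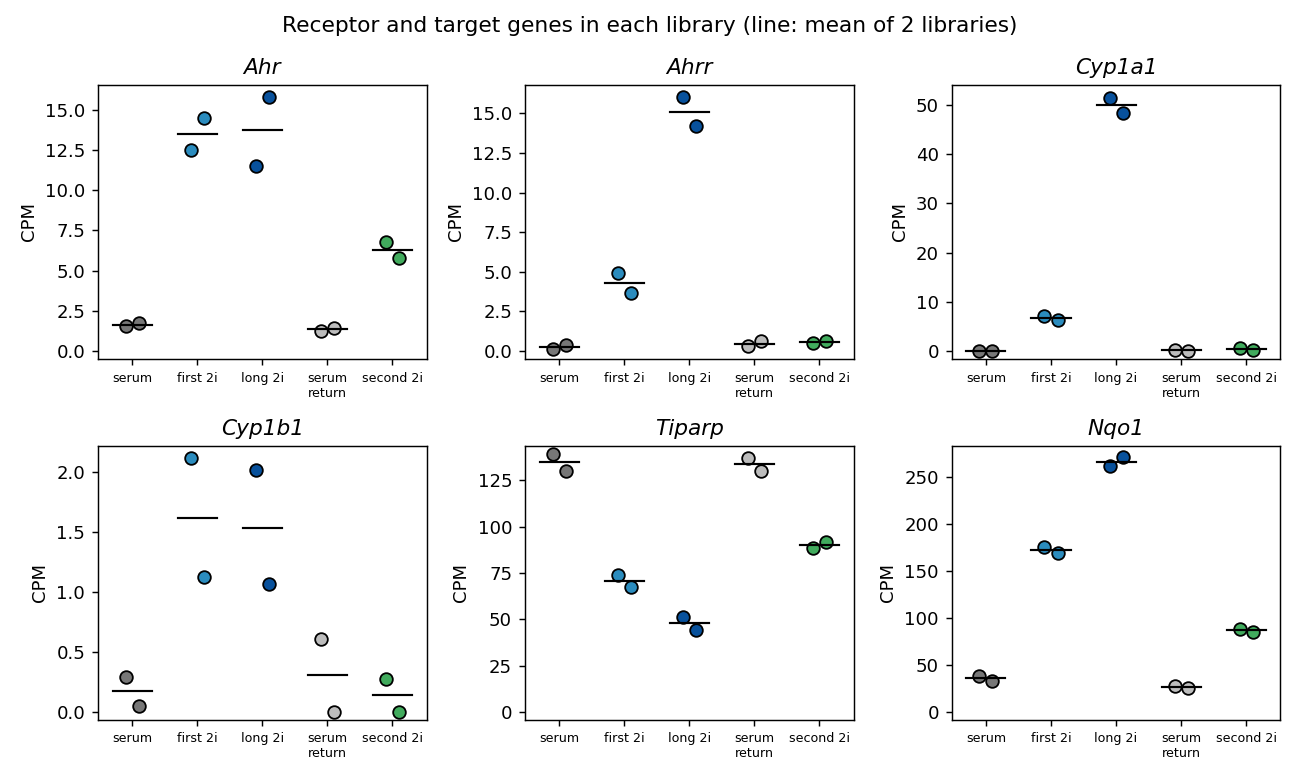
Level of each gene (vertical axis, CPM, linear and starting at 0) in the 10 libraries by culture; points are libraries and the line is the mean of 2. Cyp1a1, Ahrr and Cyp1b1 are near 0 in second 2i, where Ahr reads 6.28 CPM and Nqo1 86.7 CPM; Tiparp runs the other way.

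Nqo1 was well counted in every library, with 550 to 5125 counts. It read 38.6 and 33.3 CPM in serum, 175 and 169 CPM in first 2i and 262 and 271 CPM in long 2i. Serum return stood at 27.3 and 25.6 CPM and second 2i at 88.1 and 85.2 CPM. No 2 groups overlapped, and the order was long 2i, first 2i, second 2i, serum, serum return. First 2i was 4.78-fold above serum (log2 difference 2.26, SE 0.0664) and long 2i 1.55-fold above first 2i. Second 2i was 3.28-fold above serum return but 1.98-fold below first 2i, so that Nqo1, like Ahr, stood between serum return and first 2i without overlapping either.

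Tiparp was the exception in direction. It was highest in the serum cultures, at 139 and 130 CPM in serum and 137 and 130 CPM in serum return. It read 74.1 and 67.6 CPM in first 2i, 51.1 and 44.4 CPM in long 2i and 88.5 and 91.6 CPM in second 2i. The serum and serum return libraries interleaved (log2 difference -0.01, SE 0.064), and each 2i group stood below them and apart from the other 2i groups. First 2i was 1.9-fold below serum and long 2i 1.48-fold below first 2i, whereas second 2i was 1.27-fold above first 2i. The culture with the most Cyp1a1 and Ahrr had the least Tiparp.

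In the first comparison, first 2i against serum, libraries of the 2 groups did not overlap for any of the 6 genes, with 5 higher and Tiparp lower. Among all 14220 genes tested 83.7% did not overlap in that comparison, 42.3% higher and 41.4% lower. The median log2 difference of the 6 was 3.11, also with Cyp1a1 at its bound, and that of all genes tested 0.0096. The 6 were chosen by their counts in these libraries, and Ahrr, Cyp1a1 and Cyp1b1 passed the filter through first and long 2i. Their median is therefore a description and was not tested against that of all genes. Long 2i against first 2i had 3 higher (Ahrr, Cyp1a1 and Nqo1; 39.5% of all genes) and Tiparp lower (39.5%), with 79% of all genes not overlapping in either direction, and Ahr and Cyp1b1 overlapped. Serum return against long 2i had 5 lower (42.6% of all genes) and Tiparp higher (42.1%), with 84.8% in either direction. Serum return against the original serum had Ahr and Nqo1 lower (30.7%) and Cyp1a1 higher (33.8%; 64.6% in either direction), with 3 overlapping. Nqo1 there was 1.36-fold lower, at 26.4 ± 1.2 against 36 ± 3.7 CPM. Second 2i against serum return had Ahr and Nqo1 higher (41.1%) and Tiparp lower (41.6%; 82.7% in either direction), with Ahrr, Cyp1a1 and Cyp1b1 overlapping. Second 2i against first 2i had 5 lower (34.6%) and Tiparp higher (34.4%), with 69% in either direction. These comparisons share libraries with each other and are not independent.

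**Figure D2:**
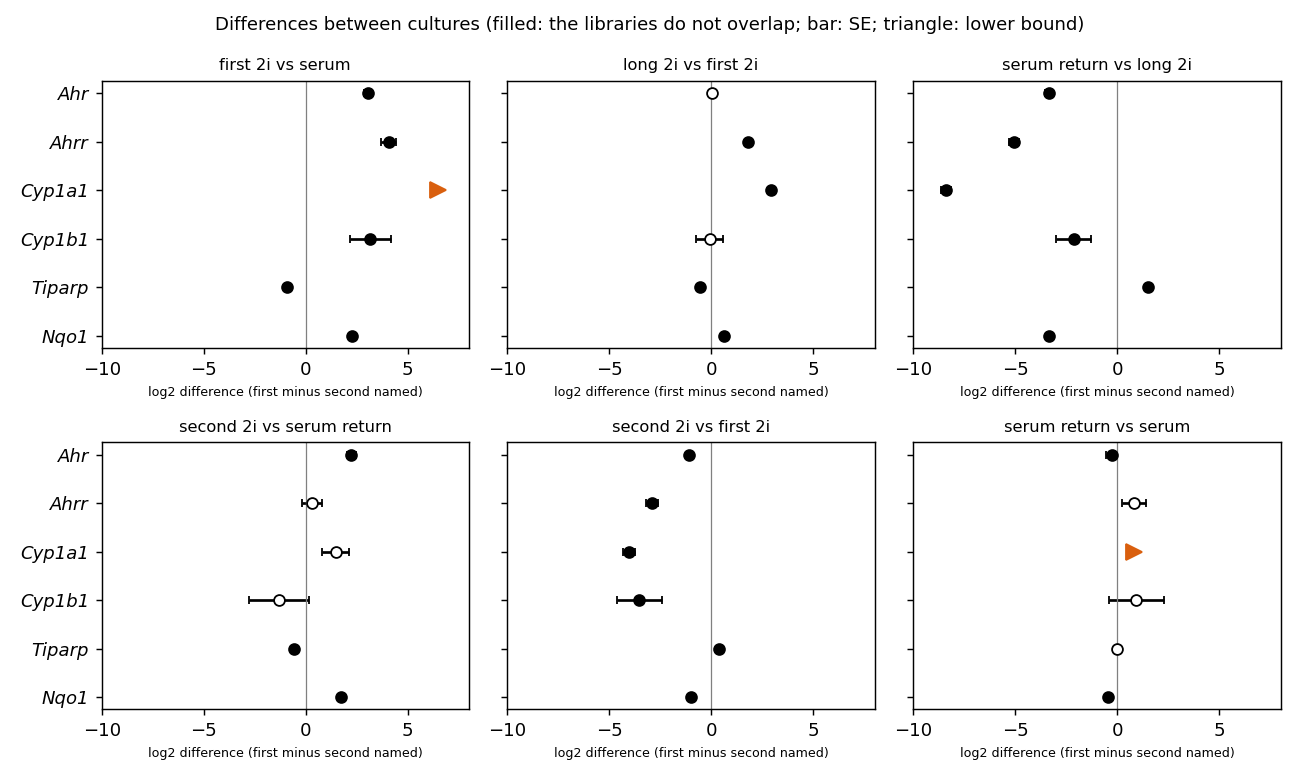
Fitted log2 difference between cultures (horizontal axis) for each gene in 6 comparisons, with the SE as a bar; filled points have libraries that do not overlap, and triangles are lower bounds for Cyp1a1 against serum, which held no counts. Against first 2i, second 2i lies to the left for 5 genes, from -0.99 for Nqo1 to -4.04 for Cyp1a1, and to the right for Tiparp at 0.35.

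Ahrr, Cyp1a1 and Nqo1 shared one order over the cultures: first 2i above serum, long 2i above first 2i, serum return below long 2i and second 2i below first 2i, in each case with no overlap. That order was met by 551 of the 14220 genes tested (3.87%), and the reverse order, which Tiparp met, by 525 (3.69%). The genes were chosen by their counts in these same libraries, so these shares are a description and no test. The order leaves out second 2i against serum return, where Nqo1 did not overlap but Ahrr and Cyp1a1 did. Across the 10 libraries the log2 CPM of Ahr and Nqo1 had a Pearson r of 0.975, that of Ahrr and Cyp1a1 0.97 and that of Tiparp and Nqo1 -0.971. These describe 10 points that fall into 5 culture groups and share their libraries, depth and medium.

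The second exposure was set beside the first for each gene. The second step (second 2i minus serum return) was 41.5% of the first (first 2i minus serum) for Ahr on the CPM scale, 44.3% for Nqo1 and 68.8% for Tiparp. It was 4.1% for Cyp1a1 and 2.29% for Ahrr, and for Cyp1b1 the second step ran the other way, at -11.7% of the first with overlapping libraries. On the fitted log2 scale, a choice added after seeing the data, the second step was 72.9% of the first for Ahr, 75.8% for Nqo1, 61.9% for Tiparp and 8.04% for Ahrr. For Cyp1b1 it was -41%, with no direction that can be given. Cyp1a1 was left out on this scale, because without counts in serum its fitted first step depends on the prior count. The order of Ahr, Nqo1 and Tiparp thus depends on the scale, and Ahrr is far below them on both. The passages in 2i were close but not equal, 4 to 5 in the second exposure and 5 to 6 in the first.

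Counts of a target per count of Ahr in the same library do not depend on the scaling between libraries. Cyp1a1 read 0.573 and 0.43 per Ahr count in first 2i, 4.47 and 3.06 in long 2i, and 0.0887 and 0.0364 in second 2i. Ahrr read 0.393 and 0.252 in first 2i, 1.38 and 0.9 in long 2i and 0.0726 and 0.109 in second 2i. For both, long 2i was highest and second 2i lowest of the 2i cultures, with no overlap. In the serum cultures these ratios rest on few counts. Ahrr read 0.0938 and 0.212 per Ahr count in serum and 0.229 and 0.452 in serum return, which overlapped first 2i. Cyp1a1 read 0.171 and 0.0323 in serum return, which overlapped second 2i. Nqo1 per Ahr count stayed within a narrower range, 11.6 to 25.2 over all 10 libraries, and second 2i (13 and 14.7) overlapped first 2i (14 and 11.6). Tiparp read 90.6 and 75.9 per Ahr count in serum, 5.94 and 4.66 in first 2i, 4.43 and 2.82 in long 2i and 13.1 and 15.8 in second 2i.

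**Figure D3:**
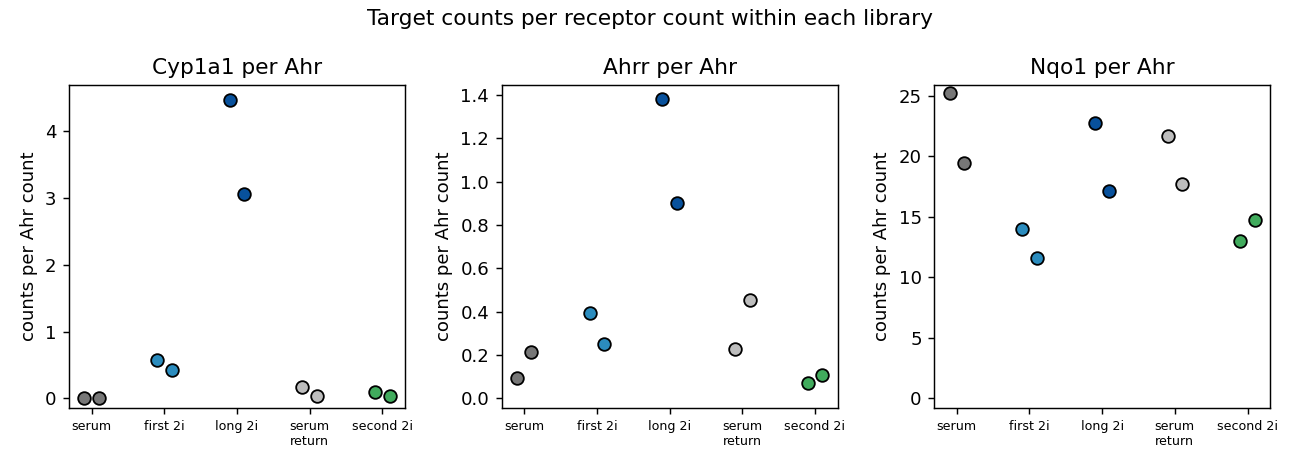
Counts of Cyp1a1, Ahrr and Nqo1 per count of Ahr (vertical axis, linear, starting at 0) in each library by culture. Cyp1a1 and Ahrr peak in long 2i at up to 4.47 and 1.38 and are at most 0.0887 and 0.109 in second 2i, whereas Nqo1 stays between 11.6 and 25.2.

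Marker sums of other cell types were set beside Cyp1a1, and their part in its levels was not tested. In long 2i, the fibroblast and feeder sum was 7.5 to 7.68 CPM (26.5 and 22.8 CPM in serum) and the endothelial sum 77 to 81 CPM (153 and 168 CPM in serum), the lowest of the 5 groups. The endothelial genes went different ways. Nos3 and Robo4 read 44.1 and 55.1 CPM in serum and 0.168 and 0.306 CPM in long 2i. Kdr and Tek were highest in long 2i, at 5.05 and 6.57 CPM (0.398 and 2.31 CPM in serum). The liver and visceral endoderm sum was 4.91 and 6.86 CPM in long 2i, 3.88 and 3.56 CPM in first 2i and 2.82 and 3.49 CPM in serum. It was highest in serum return, at 9.65 and 9.07 CPM, of which Gata6 made up 5.99 CPM on average. Gata4 of the same list was highest in long 2i, at 4.67 CPM, against 2.43 CPM in serum return and 1.28 CPM in serum.

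The rest of the pathway was read from 6 lists that hold 83 other genes, of which 59 passed the filter and were tested with edgeR's quasi-likelihood test at a Benjamini-Hochberg adjusted p under 0.05. In first 2i against serum 27 rose (45.8%) and 20 fell (33.9%), beside 35.1% and 34.9% of all genes tested. In long 2i against first 2i 25 rose and 19 fell (background 30.4% and 30.8%). In serum return against long 2i 18 rose and 31 fell (background 35.4% and 36%), and in second 2i against serum return 27 rose and 16 fell (background 32.3% and 33.3%). Second 2i against first 2i had 8 higher and 12 lower (background 18.1% and 19.6%). The 8 became 5 with the DESeq2 Wald test, 5 without replicate 1 of first 2i and 4 without replicate 2 of second 2i. Serum return against serum had 16 higher and 14 lower (background 16.5% and 14.5%), and the 16 became 8 without replicate 1 of serum return and 10 without either serum library. The response to the second exposure, tested against that to the first, was higher for 12 of the 59 and lower for 18 (background 18.4% and 21%, 39.4% in either direction).

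Genes for the proteins that hold or partner the receptor split in direction. Of 13 genes 5 rose and 6 fell in first 2i against serum (median log2 difference -0.13, against 0.0096 over all genes). Arnt, the obligate partner, read 159 ± 2.8 CPM in serum and 160 ± 0.86 CPM in first 2i (edgeR adjusted p = 0.928), and 153 ± 1.5 CPM in second 2i. It was lowest in long 2i, at 140 ± 2 CPM (edgeR adjusted p = 0.00353 against first 2i). Its paralogue Arnt2 fell 2.45-fold to 2.65 ± 0.11 CPM in first 2i and rose again to 7.71 ± 0.38 CPM in long 2i (edgeR adjusted p = 5.42e-08). Ptges3 rose 1.35-fold, from 194 ± 18 to 262 ± 24 CPM. Hsp90ab1 fell by 0.13 on the log2 scale (edgeR adjusted p = 0.014), a call that did not hold when replicate 1 of serum was left out (adjusted p = 0.113), nor when replicate 2 of first 2i was (adjusted p = 0.114). The coactivator gene Ncoa3 fell 2.64-fold to 143 ± 1 CPM and the corepressor gene Nrip1 rose 2.92-fold to 15.6 ± 3.2 CPM. Second 2i against first 2i moved 3 of the 13, with Ncoa3 up from 143 ± 1 to 190 ± 5 CPM (edgeR adjusted p = 3.19e-06). The others were Arnt2, up 1.45-fold (edgeR adjusted p = 0.0214), and Ptges3, down 1.17-fold (edgeR adjusted p = 0.0346). The Arnt2 call was lost with DESeq2 (adjusted p = 0.0814), without either first 2i library (0.105 and 0.0554) and without replicate 2 of second 2i (0.141), and the Ptges3 call without replicate 1 of first 2i (0.294) or replicate 2 of second 2i (0.218).

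Of 16 further genes known as receptor targets, 9 were too low to test and the other 7 split. Cyp1a2, the neighbour and paralogue of Cyp1a1, was among the low ones, with 2 and 1 counts in first 2i, 5 and 2 in long 2i, 1 and 0 in second 2i and none in any serum library. In first 2i against serum 2 rose, Nfe2l2 by 1.92-fold and the cell-cycle inhibitor Cdkn1b by 1.43-fold, and 3 fell, the P450 gene Cyp2s1 by 1.7-fold, the amino acid transporter Slc7a5 by 1.63-fold and the secreted glycoprotein gene Stc2 by 1.5-fold. Aldh3a1, an aldehyde dehydrogenase of the classical receptor battery, stayed at 0.53 ± 0.21 against 0.618 ± 0.18 CPM (edgeR adjusted p = 0.671). In long 2i against first 2i, where Cyp1a1 was 7.46-fold higher, 2 rose and 5 fell. Cyp2s1 fell further, from 24.7 ± 1.2 to 15.5 ± 1.9 CPM, and Ptgs2, a prostaglandin synthase, rose from 0.547 ± 0.15 to 1.68 ± 0.055 CPM (edgeR adjusted p = 0.00101).

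Since Nqo1 is also a target of NRF2, encoded by Nfe2l2, the NRF2 battery was read beside it. In first 2i against serum 12 of 23 genes rose and 7 fell (median 0.21), and in second 2i against serum return 12 rose and 3 fell (median 0.32). In serum return against long 2i 2 rose and 17 fell (median -0.35), beside 35.4% and 36% of all genes. Nfe2l2 itself rose from 99.7 ± 8.1 to 191 ± 0.61 CPM in first 2i. In long 2i, where Nqo1 was highest, Nfe2l2 was 1.38-fold below first 2i, at 138 ± 8.4 CPM (edgeR adjusted p = 7.61e-07). In second 2i it read 186 ± 1.5 CPM, which was not told apart from first 2i (edgeR adjusted p = 0.674). Keap1, which marks NRF2 for degradation, rose 1.88-fold to 72.3 ± 4.7 CPM, and Gsr, glutathione reductase, rose from 166 ± 5.4 to 320 ± 6.1 CPM. Osgin1, an oxidative stress-induced growth inhibitor, read 0.378 ± 0.13 CPM in serum, 1.7 ± 0.22 CPM in first 2i, 5.39 ± 0.44 CPM in long 2i, 0.124 ± 0.023 CPM in serum return and 1.5 ± 0.26 CPM in second 2i. Its second and first 2i levels did not pass the test for a difference (edgeR adjusted p = 0.665). Over the battery 8 of 23 genes were lower (34.8%) and 2 higher in second 2i than in first 2i, beside 19.6% and 18.1% of all genes. Gstm1, a glutathione transferase, was among the lower, at 20.1 ± 0.29 against 43.4 ± 0.46 CPM (2.15-fold, edgeR adjusted p = 8.08e-09), beside 1.98-fold for Nqo1. Hmox1, haem oxygenase, ran against Nqo1 in first 2i against serum, where it fell 1.42-fold, from 137 ± 3.8 to 96.3 ± 2.6 CPM. It then rose to 152 ± 0.45 CPM in long 2i (edgeR adjusted p = 1.43e-09) and fell to 125 ± 1.5 CPM in serum return (edgeR adjusted p = 6.89e-05). Both of these changes had the direction of Nqo1. In second 2i Hmox1 read 126 ± 3.1 CPM and overlapped serum return, where Nqo1 did not. That level lay above first 2i in both libraries, against the direction of Nqo1.

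The other lists gave few tested genes. Of the other bHLH-PAS genes 3 rose and 3 fell of 10 tested in first 2i against serum. Hif1a read 175 ± 1.6 and 184 ± 2.6 CPM (edgeR adjusted p = 0.206), Epas1 (HIF-2α) fell 2.5-fold to 146 ± 10 CPM and the clock-related gene Arntl2 rose 4.75-fold to 4.82 ± 0.27 CPM, then to 15.4 ± 1.3 CPM in long 2i. Of 9 genes of tryptophan catabolism, the route to kynurenine ligands of the receptor, 2 could be tested. Ido2, an indoleamine dioxygenase, rose from 0.908 ± 0.34 CPM in serum to 5.25 ± 0.26 CPM in first 2i and 22.6 ± 0.75 CPM in long 2i, read 0.591 ± 0.18 CPM in serum return and stood at 4.02 ± 0.017 CPM in second 2i. Afmid, which makes kynurenine from its formyl precursor, rose 3.08-fold in first 2i to 18 ± 1.4 CPM and read 12.1 ± 1.6 CPM in long 2i. Among genes of other xenobiotic receptors and their targets 4 of 7 tested rose and 2 fell in first 2i. The drug efflux pump genes Abcb1b and Abcc2 rose 4.23-fold and 7.94-fold, and Abcb1b rose again to 77.9 ± 1.6 CPM in long 2i. The pregnane X receptor gene Nr1i2 rose from 0.143 ± 0.0041 CPM in first 2i to 1.56 ± 0.11 CPM in long 2i (edgeR adjusted p = 2.6e-05). In second 2i against first 2i neither Ido2 (edgeR adjusted p = 0.088) nor Afmid (0.184) nor Abcc2 (0.45) passed the test.

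**Figure D4:**
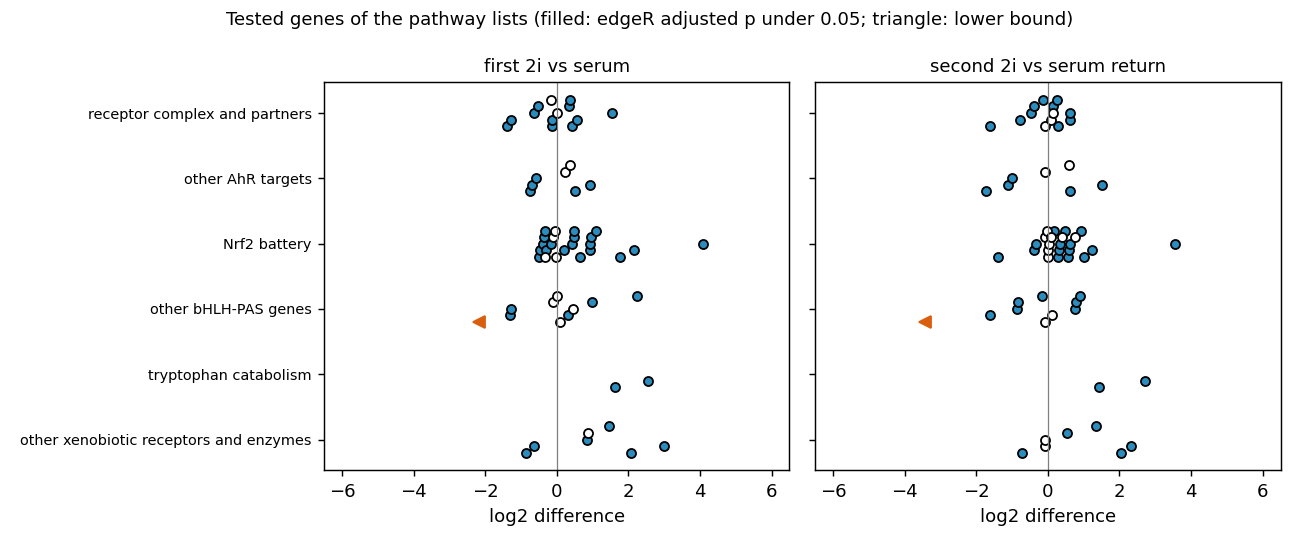
Fitted log2 difference (horizontal axis) of each tested gene in the 6 pathway lists, for first 2i against serum (left) and second 2i against serum return (right); filled points passed the edgeR test, and triangles are bounds for Npas3, a neuronal bHLH-PAS gene with no counts in first or second 2i. Both directions occur in the receptor complex list, where 5 rose and 6 fell in the first exposure.

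The genes whose log2 CPM ran closest to that of Cyp1a1 over the 10 libraries, among 10642 with at least 5 CPM in some group, were Lpin1, a phosphatidate phosphatase (Pearson r = 0.991), and Mdm2, the ubiquitin ligase of p53 (r = 0.99). Hnrnpa3, an RNA-binding protein gene, the exocyst gene Exoc4 and the zinc finger gene Zfp275 followed, with r of 0.984, 0.984 and 0.982. Their ranges were small beside that of Cyp1a1: Lpin1 went from 26.7 CPM in serum to 59.9 CPM in first 2i and 76 CPM in long 2i and read 33.1 CPM in second 2i, and Mdm2 went from 104 to 145, 182 and 114 CPM. Closest to Ahr were Atg13, an autophagy gene (r = 0.995), the calcium-binding protein gene S100a1 (0.991) and Pof1b, an actin-binding protein gene (0.991), with the kinase gene Nek8 (0.99) and the annexin gene Anxa4 (0.989). S100a1 stood at 1.72 CPM in serum, 11.7 CPM in first 2i, 11.2 CPM in long 2i, 1.61 CPM in serum return and 5.01 CPM in second 2i. These values describe 10 points that share libraries and media.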

How the data were processed

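Total RNA from mouse embryonic stem cells was sequenced as 10 libraries, 2 for each of 5 cultures, grouped by the culture medium in the labels; replicates 1 and 2 follow the title series LEM and MLE, of unstated meaning. The authors deposited raw read counts per gene symbol. The submitters' processing notes name HTSeq 0.5.4p5, TopHat2 2.0.4, CASAVA 1.8.2, DESeq2 and build mm9; the sources used here name no annotation or strand setting, so overlapping and antisense genes are uncertain. Reads aligned to more than 1 place (33.41 to 36.51% of records), those outside genes (10.34 to 11.78%) and ambiguous ones stayed out of totals. Near-identical copies can therefore be under-counted.

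Counts were fitted in R 4.3.3 with edgeR 4.0.16 (filterByExpr, minimum count 10, 14220 genes; TMM; robust quasi-likelihood fit of all 10 libraries by group, 5 residual degrees of freedom). P-values are two-sided and Benjamini-Hochberg adjusted over all genes tested. They measure the spread between libraries, which may be technical. The fit was tested on simulated data, where false calls made up more of the calls than the nominal share. Calls near the threshold are therefore less certain than their adjusted p. Far fewer genes were changed in the simulation than were called in these data, so the size of that share need not carry over. Folds are ratios of mean CPM; standard errors belong to fitted log2 differences, which for genes near 0 counts depend on edgeR's prior count. Alternatives were RLE size factors, no filter, the DESeq2 1.42.0 Wald test, a replicate block for title series, a fit of the compared groups alone, each library left out, and, added after seeing the data, leaving out Rn45s.

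The 6 genes and the lists were chosen with earlier results of these data known. Named pathway genes were Arnt, Arnt2, Hsp90ab1, Ptges3, Nfe2l2, Keap1, Cyp1a2, Aldh3a1 and Hif1a, and per list and comparison up to 3 genes with the largest log2 difference among those that passed the test, had groups that did not overlap and read at least 1 CPM; the text names part of these, with values in other comparisons too. A further gene named by the rule is not reported here. Genes closest to Cyp1a1 and Ahr were ranked by Pearson r of log2 CPM (prior count 2), model-name symbols excepted.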

Additional observations from a re-analysis of the deposited data

Results flagged for a closer look

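None of the 6 genes moved in opposite directions in the first and the second exposure to 2i with libraries that did not overlap. For the pathway genes the difference between the exposures was tested (second 2i minus serum return, less first 2i minus serum; edgeR quasi-likelihood, Benjamini-Hochberg adjusted p). Of 59 genes 12 were higher and 18 lower, beside 39.4% of all genes tested, and the 23 that are named by rule follow with their log2 differences. Partners and co-regulators of the receptor counted Ncoa3 (0.606), Crebbp (0.427), Ptges3 (-0.287) and Nrip1 (-0.922). Known receptor targets counted Nfe2l2 (-0.323), Slc7a5 (-0.299), Stc2 (-0.537), Cdkn1b (-0.595) and Cyp2s1 (-0.978). These are 5 of the 7 tested on that list (71.4%, beside 21% of all genes lower), and Aldh3a1 and Ptgs2 did not pass. The negative values do not describe one behaviour. Nfe2l2 rose in both exposures, Slc7a5, Stc2 and Cyp2s1 fell in both, and Cdkn1b rose in the first only. Genes of the NRF2 battery counted Hmox1 (0.519), Keap1 (0.31), Gstm1 (-0.641), Me1 (-0.762), Abcc1 (-0.927) and Slc7a11 (-3.32). Slc7a11, a cystine transporter gene, held 3 and 0 counts in serum, so its size depends on few reads, and its call was lost without replicate 1 of serum return (adjusted p = 0.0585). Other bHLH-PAS genes counted Epas1 (0.49), Hif1a (-0.254), Hif3a (-1.15) and Arntl2 (-1.33). Genes of other xenobiotic receptors counted Por (0.566), Abcb1a (-0.29), Abcc2 (-0.682) and Abcb1b (-0.726). The call for Hif1a was lost without replicate 1 of serum return (adjusted p = 0.0611) or replicate 2 of second 2i (adjusted p = 0.0631), and calls for Abcb1a, Abcc2, Keap1 and Ptges3 were lost in several alternatives.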

How the results depend on the processing

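Numbers of pathway genes called kept within 1.5 times of the reported number in every alternative, with these exceptions. Genes higher in second 2i than in first 2i numbered 8, 5 with the DESeq2 Wald test, 13 with the title series as a replicate block, and 4 to 9 with 1 library left out. Genes higher in serum return than in serum numbered 16 and 8 to 17 with 1 library left out. The cause was not tested. The number of the 6 genes whose libraries did not overlap was within 1.5 times in all comparisons with RLE size factors and without a filter. For the 6 genes no fitted log2 difference with libraries that did not overlap changed sign in any alternative; 11 of 360 values with a library left out, and 1 with DESeq2, moved by more than the replicate spread, all for Ahrr, Cyp1a1 or Cyp1b1, whose low groups hold few counts. Cyp1a1 in serum return against long 2i read -9.88 in place of -8.40 without replicate 1 of serum return. Of 191 calls among named pathway genes 36 were lost when some library was left out. The title series were not treated as pairs in the main fit. Same-series libraries deviated together with correlations of 0.099 to 0.17 over 10 pairs of groups, all positive and 9 of them over 0.1. The replicate block lost no call of a named pathway gene and added 22. Groups with under 20 counts of Cyp1a1, Cyp1b1 or Ahrr limit what can be said of them.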
